A study of Mus musculus with 10 samples.

Results

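The genes described here encode enzymes of the pentose phosphate pathway and cytosolic enzymes outside it that regenerate NADPH. They are Pgls, Pgd, Taldo1, Tkt, Rpia, Rpe, Me1 and Idh1, 8 genes taken by symbol from the 55866 of the deposited table. All 8 passed the filter on low counts. RNA came from the mouse cell line iKCs, and 10 libraries of polyadenylated RNA were sequenced. Cells had received a lentiviral vector and were sorted for viability and for mOrange, the fluorescent marker of the vector. The 4 groups were miR-342-3p overexpression (3 libraries), a mutated miR-342-3p hairpin as its control (2 libraries), a sponge for miR-342-3p (3 libraries) and a scramble sponge as its control (2 libraries). Sponge transcripts carry sites that bind a microRNA and so draw it away from its targets. All groups therefore carry a vector, and no untransduced cells are among them. By its title the study asks whether forcing miR-342 makes macrophages of liver metastases inflammatory.

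The pathway has an oxidative and a non-oxidative branch. The oxidative branch converts a hexose phosphate to ribulose 5-phosphate and reduces NADP to NADPH, in part through PGD. The non-oxidative branch turns pentose phosphates into glycolytic intermediates and back, so ribose for nucleotides can be made with or without NADPH. Malic enzyme 1 and isocitrate dehydrogenase 1 regenerate NADPH in the cytosol from malate and isocitrate. In macrophages NADPH serves the phagocyte oxidase, nitric oxide synthase, the glutathione and thioredoxin reductases and the synthesis of fatty acids and sterols. The transcription factor NRF2 is known to drive several of these genes.

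Because the overexpression and sponge vectors are aimed at miR-342-3p, its sequence and its seed match among the 8 genes are shown here. The RefSeq mature sequence is printed with its seed, bases 2 to 8, in capitals. One 3′ UTR per gene, the longest in GENCODE vM21, was searched for the 7 bases that pair with the seed, GTGTGAG. A single match was found in the 8 genes, in Me1, at base 1183 of a UTR of 1366 bases. It is a 7mer-m8 site, in capitals below with its neighbouring bases, and not an 8mer. A site of either kind was present in 12.5% of the 8 genes and in 15.2% of the 11916 tested genes with a UTR.
mmu-miR-342-3p: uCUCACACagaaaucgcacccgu
Me1 3′ UTR site: gggtgcagaagctttcagGTGTGAGctaa

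The promoters were searched for the core of the antioxidant response element, the element bound by NRF2, spelled TGACNNNGC on either strand. RefSeq promoters (GRCm38.p6), from 250 bases before to 50 after a start site, were found for all 8 genes, 11 in number. At the first listed start site the core was present in Me1, on the same strand from base −6. Another listed start site of Pgd had a match from base 4. Of all 32851 promoters 12.4% held the core, and of the 13317 promoters of tested genes 14.3%. The window of Me1, chr9:86695912-86695940 on the minus strand, is printed along the gene's strand with the core in capitals. A match of these letters is not a measured binding site.
Me1 promoter: cggctcggccgatgccgccgTGACTCAGC

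Library totals lay between 25712732 and 59259988 counts. Reads over the Mir342 hairpin were at 8.22 to 11.3 CPM with overexpression and 2.86 to 3.22 CPM in the mutated control, and at 0 in all 5 sponge and scramble libraries. These are reads of polyadenylated RNA that covers the hairpin. The level of the mature microRNA was not measured in any group. The macrophage genes Csf1r, Cd68, Adgre1 and C1qa were abundant, whereas the Kupffer cell markers Clec4f and Timd4 had 0 reads and Vsig4 at most 4 in a library. Marco and Cd5l were low but present, with 93 to 246 and 39 to 133 reads in a library. Of 14 macrophage and Kupffer markers 11 averaged at least 1 CPM, with summed levels of 6959 to 7609 CPM (overexpression), 6787 to 7322 CPM (mutated control), 7112 to 7783 CPM (sponge) and 7291 to 7866 CPM (scramble). Hepatocyte, stellate, lymphocyte, neutrophil and erythroid lists had no marker averaging 1 CPM. In the endothelial list 3 of 5 did, led by Kdr, with sums of 21.2 to 24.3 CPM (overexpression), 28.8 to 31.1 CPM (mutated control), 23.9 to 25.0 CPM (sponge) and 23.1 to 25.1 CPM (scramble). The endothelial sum, mostly Kdr (mean 21.0 CPM), was thus highest in the mutated control, and its part in the results was not tested. Stab2 and Cdh5 averaged 2.21 and 1.32 CPM, and Pecam1 and Lyve1 0.31 and 0.07 CPM. Overexpression replicate 1 and sponge replicate 3 stood apart. Each was most like the other (Pearson r 0.9944 over 15767 genes), although they carry different vectors. The margin was small: sponge replicate 3 had 0.9942 and 0.9943 with the scramble libraries, and overexpression replicate 1 had 0.9939 with replicate 2. Overexpression replicates 2 and 3 and sponge replicate 1 were also most like a library outside their group, the same scramble one. That scramble library was itself most like sponge replicate 1. In overexpression replicate 1 and sponge replicate 3, short genes were relatively high, with Spearman rho of −0.27 and −0.26 between a gene's deviation from its mean and its exonic length. The other 8 libraries had values between −0.08 and 0.20.

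**Figure D1:**
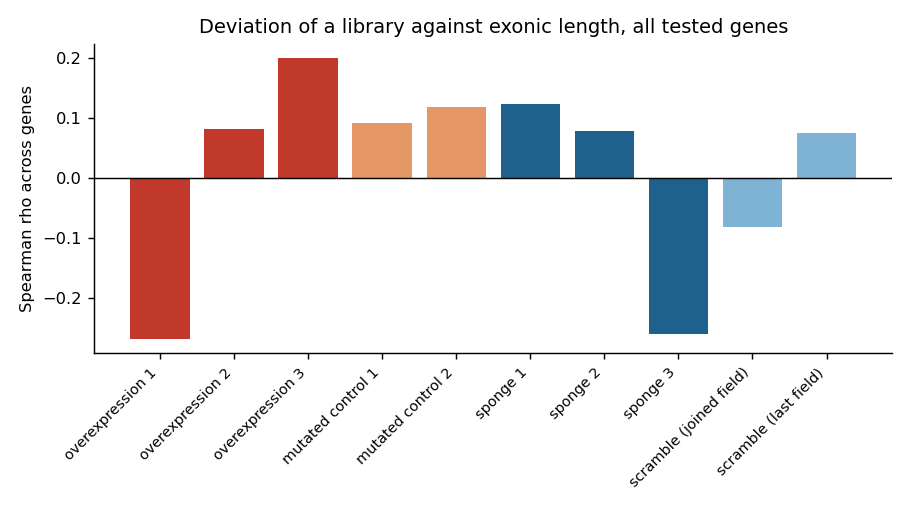
Spearman rho across 15767 tested genes between a library's deviation from the gene mean (log2 CPM) and the log2 exonic length, 1 bar per library, coloured by group. Overexpression replicate 1 (−0.27) and sponge replicate 3 (−0.26) lie below the other 8 libraries.

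Per exonic length, transaldolase and 6-phosphogluconate dehydrogenase were the most abundant of the 8. Mean TPM over the 10 libraries was 473 ± 29.0 for Taldo1, 259.5 ± 19.3 for Pgd, 223 ± 19.8 for Tkt and 189 ± 8.28 for Idh1 (SD, n = 10). The others were lower, with 66.6 ± 3.7 TPM for Pgls, 60.5 ± 4.29 for Rpe, 43.7 ± 3.98 for Me1 and 16.1 ± 1.7 for Rpia (SD, n = 10). Each neighbour in this order was higher than the next in 10 of 10 libraries, except Pgls above Rpe in 9. The ranges of these neighbours overlapped for Pgd and Tkt, Tkt and Idh1, and Pgls and Rpe. The length used is the union of all annotated exons, 2171 bases for Taldo1 and 7355 for Tkt, so genes with rarely used long exons appear lower. In rank, Taldo1 stood at 289 and Rpia at 7852 of the 15767 tested genes.

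**Figure D2:**
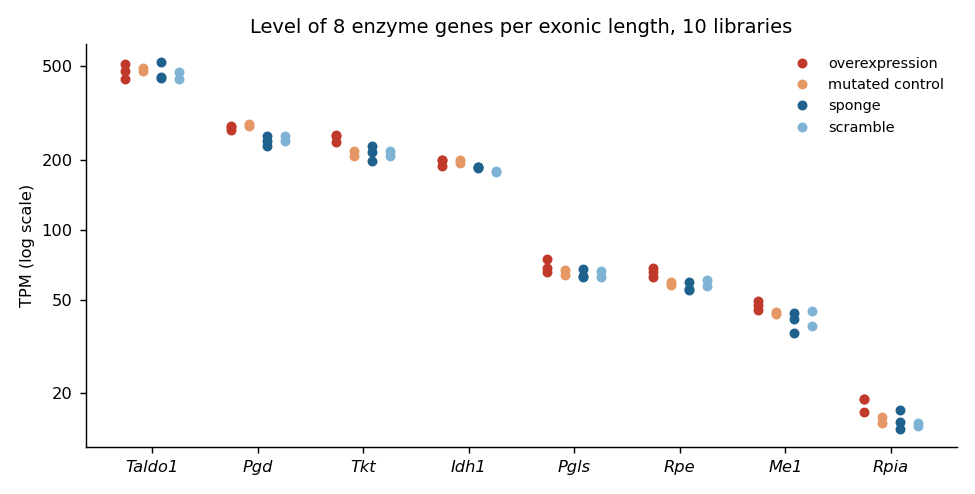
TPM on a log axis for the 8 genes, ordered by mean, with 1 point per library coloured by group. Taldo1 is highest (mean 473 TPM) and Rpia lowest (mean 16.1 TPM).

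Gene positions below are those of the deposited table, in the coordinates of GENCODE vM30. The spread of the 8 genes across the 10 libraries is given here without that of other genes beside it. The highest library stood above the lowest by 1.14-fold for Idh1, the narrowest, and by 1.42-fold for Rpia, the widest of the 8. Counting error was small against this: the lowest count of any member was 625 reads, for Rpia, where counting alone gives a relative error of 4.0%. None of the 8 genes passed edgeR's quasi-likelihood test at an adjusted p of 0.05 in any of 6 contrasts or in the test for any difference among the 4 groups. The smallest adjusted p in the 6 contrasts was 0.0948, for Rpe between overexpression and sponge. Among the 4 groups Rpe had the smallest p (0.00947, edgeR adjusted p = 0.181), and 0.419% of all tested genes passed there.

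Pgls (chr8:72044820-72053736, plus strand) encodes the lactonase of the oxidative branch. It had 83.3, 71.5 and 67.7 CPM with overexpression, against 68.2 and 66.2 CPM in the mutated control. It had 65.8, 65.7 and 74.9 CPM with the sponge, against 67.0 and 69.1 CPM with the scramble. The highest values were those of overexpression replicate 1 and sponge replicate 3, and all other libraries lay between 65.7 and 71.5 CPM. Overexpression stood 0.14 above the mutated control on the log2 scale (SE 0.09, edgeR adjusted p = 0.408). The value was 0.06 without these 2 libraries (edgeR adjusted p = 0.583).

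Pgd (chr4:149234448-149251228, minus strand) encodes 6-phosphogluconate dehydrogenase, an NADPH-producing step of the oxidative branch. It had 522, 495 and 469.9 CPM with overexpression, against 485 and 499 CPM in the mutated control. It had 422, 408 and 472 CPM with the sponge, against 441 and 447 CPM with the scramble. Both hairpin groups thus lay above the scramble group without overlap. The mutated control also lay above all 3 sponge libraries, while overexpression replicate 3 was just under sponge replicate 3. The log2 fold change was 0.01 for overexpression over the mutated control (SE 0.07, edgeR adjusted p = 0.949). It was 0.19 for overexpression over the sponge (SE 0.07, edgeR adjusted p = 0.175) and 0.15 for the mutated control over the scramble (SE 0.08, edgeR adjusted p = 0.847).

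Among the non-oxidative enzymes, only Rpe had all 3 overexpression libraries above the other 7. It passed none of the 6 contrasts in the edgeR fit of 10 libraries. It lies at chr1:66739990-66758964, plus strand, and encodes ribulose-phosphate 3-epimerase, which makes xylulose 5-phosphate for transketolase. Rpe had 57.3, 57.1 and 58.2 CPM with overexpression, against 48.6 and 51.2 CPM in the mutated control. It had 51.3, 47.4 and 50.9 CPM with the sponge, against 50.9 and 51.8 CPM with the scramble. Overexpression lay above all 7 other libraries in 3.54% of tested genes. For Rpe, overexpression replicate 1 was not apart from replicates 2 and 3. Over the mutated control the log2 fold change was 0.20 (SE 0.06, 95% interval 1.05-fold to 1.26-fold, edgeR adjusted p = 0.142). It was 0.16 over the scramble (SE 0.06, edgeR adjusted p = 0.294) and 0.21 over the sponge (SE 0.05, edgeR adjusted p = 0.0948). For the sponge over the scramble it was −0.04 (SE 0.06, edgeR adjusted p = 1), and the difference between the vector effects was 0.25 (SE 0.09, unadjusted p = 0.0145, edgeR adjusted p = 0.53).

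Rpia (chr6:70742704-70769216, minus strand) encodes ribose-5-phosphate isomerase, which makes the ribose 5-phosphate of nucleotides. It had 29.7, 27.9 and 24.3 CPM with overexpression, against 21.6 and 23.3 CPM in the mutated control. It had 22.2, 20.9 and 26.5 CPM with the sponge, against 22.0 and 22.0 CPM with the scramble. Overexpression lay above both control groups, and sponge replicate 3 reached into its range. The log2 fold change was 0.29 over the mutated control (SE 0.11, edgeR adjusted p = 0.222), 0.32 over the scramble (SE 0.11, edgeR adjusted p = 0.283) and 0.24 over the sponge (SE 0.10, edgeR adjusted p = 0.236). These were the largest log2 fold changes of the 8 genes in each of these 3 comparisons.

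Tkt (chr14:30270316-30296677, plus strand) encodes transketolase, which moves 2-carbon units between sugar phosphates. It had 544, 520.0 and 477 CPM with overexpression, against 431 and 417 CPM in the mutated control. It had 433, 399 and 489 CPM with the sponge, against 431 and 436 CPM with the scramble. As with Rpia, overexpression lay above both controls and sponge replicate 3 overlapped it. Over the mutated control Tkt had a log2 fold change of 0.28 (SE 0.09, 95% interval 1.06-fold to 1.39-fold, edgeR adjusted p = 0.158). It was 0.25 over the scramble (SE 0.09, edgeR adjusted p = 0.288) and 0.22 over the sponge (SE 0.08, edgeR adjusted p = 0.179). For the sponge over the scramble it was 0.02 (SE 0.09, edgeR adjusted p = 1).

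Taldo1 (chr7:140972112-140982881, plus strand) encodes transaldolase, the partner of transketolase. It had 328, 286 and 262 CPM with overexpression, against 287 and 284 CPM in the mutated control. It had 268, 268 and 329 CPM with the sponge, against 291 and 261 CPM with the scramble. Overexpression replicate 1 and sponge replicate 3 were again the highest, and no pair of groups was apart. The log2 fold change was 0.03 for overexpression over the mutated control (SE 0.11, edgeR adjusted p = 0.882), and −0.05 without these 2 libraries (edgeR adjusted p = 0.648). The difference between Taldo1 and Tkt was not tested. The reads of Taldo1 per read of Tkt were 0.603, 0.550 and 0.549 with overexpression, against 0.666 and 0.682 in the mutated control. They were 0.619, 0.671 and 0.673 with the sponge and 0.676 and 0.600 with the scramble, so the lowest scramble value reached the overexpression range.

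Me1 (chr9:86463424-86578006, minus strand) encodes the cytosolic malic enzyme and is the gene with the seed match shown above. It had 54.2, 53.0 and 47.8 CPM with overexpression, against 46.0 and 46.0 CPM in the mutated control. It had 46.4, 38.7 and 46.7 CPM with the sponge, against 42.4 and 47.6 CPM with the scramble. All 3 overexpression libraries lay above the other 7, the nearest by less than 1 CPM. Its log2 fold change was 0.17 over the mutated control (SE 0.09, edgeR adjusted p = 0.354) and 0.24 over the sponge (SE 0.08, edgeR adjusted p = 0.182). Without sponge replicate 2, its lowest library, the value over the sponge was 0.15. For the sponge over the scramble it was −0.04 (SE 0.09, edgeR adjusted p = 1).

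Idh1 (chr1:65197775-65225659, minus strand) encodes the cytosolic isocitrate dehydrogenase and varied least of the 8. It had 153, 153 and 151 CPM with overexpression, against 145 and 150.3 CPM in the mutated control. It had 141, 141 and 150.0 CPM with the sponge, against 141 and 134 CPM with the scramble. The overexpression libraries again lay above the other 7, by less than 1 CPM at the nearest. The log2 fold change was 0.05 over the mutated control (SE 0.06, edgeR adjusted p = 0.673) and 0.15 over the scramble (SE 0.06, edgeR adjusted p = 0.322). Over the mutated control the value was 0.02 without replicate 1 of that control and 0.08 without its replicate 2.

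**Figure D3:**
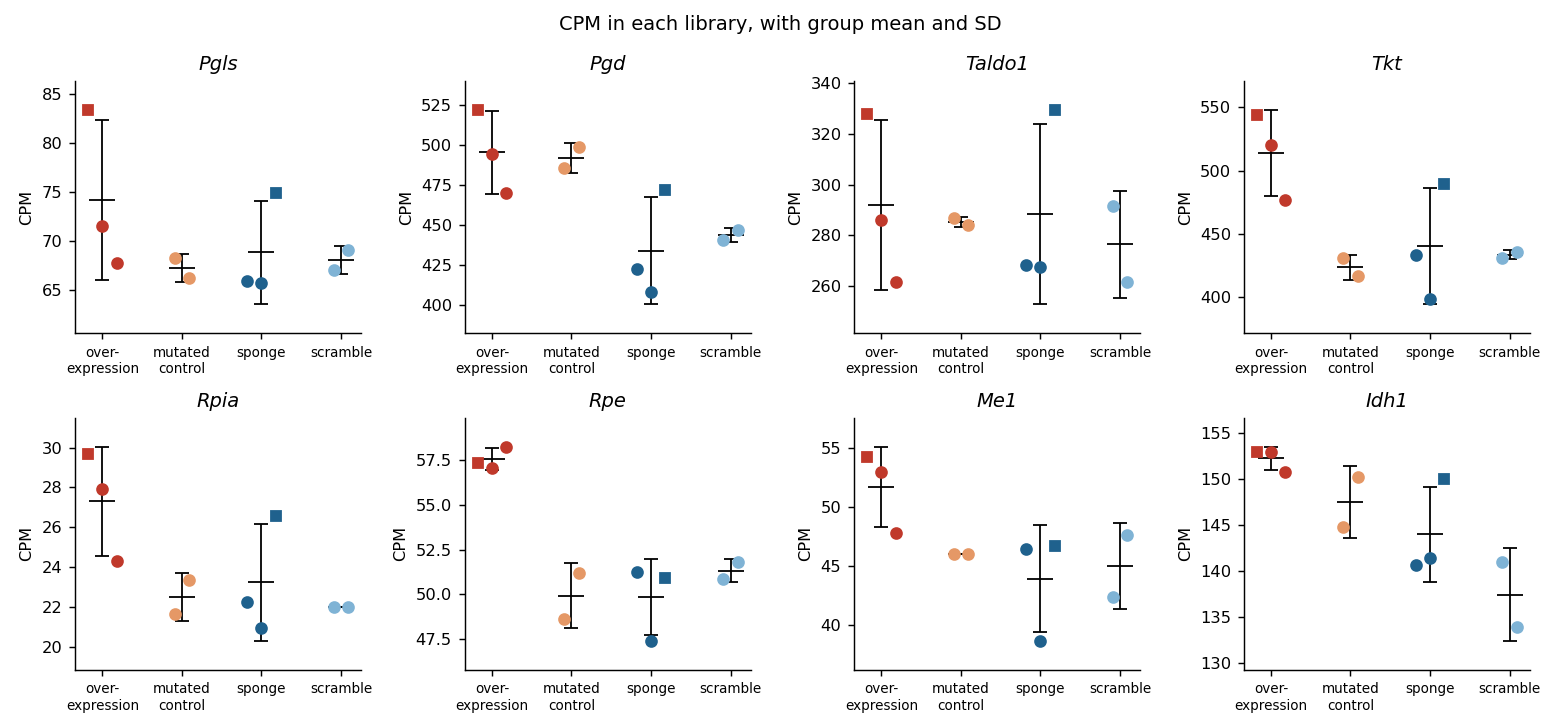
CPM of each gene in each library by group, with the group mean and SD as black bars; axes do not start at 0. Squares mark overexpression replicate 1 and sponge replicate 3, which are the highest libraries of Taldo1 and Pgls, while for Rpe all 3 overexpression libraries (57.1 to 58.2 CPM) lie above the rest.

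Overexpression against the mutated control asked what the microRNA changes. All 8 genes had a log2 fold change above 0, with a median of 0.16, against −0.01 over all tested genes, of which 48.8% were above 0. In 5 genes the groups did not overlap (Tkt, Rpia, Rpe, Me1 and Idh1, all higher), which also held for 38.2% of all tested genes, 18.9% with overexpression higher. At an unadjusted p under 0.05 stood 3 of 8 (Tkt, Rpia and Rpe), against 18.2% of tested genes, and 0 of 8 passed the adjusted p, against 0.539%. Pgls, Pgd and Taldo1 were not among these 5. Against the scramble, all 8 were above 0, with a median of 0.16, and 6 did not overlap, all higher, against 31% of tested genes, 15.1% higher. Of all tested genes 47.7% were above 0, 13.4% had an unadjusted p under 0.05, as 4 of the 8 did, and 0.0444% passed the adjusted p. This comparison shares its overexpression libraries with the one before it, and the scramble is a sponge vector.

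Overexpression against the sponge set opposite perturbations side by side, again with different types of vector. All 8 genes were above 0, with a median log2 fold change of 0.20. Unadjusted p under 0.05 was reached by 5 (Pgd, Tkt, Rpia, Rpe and Me1), against 17.7% of tested genes, and groups did not overlap in 3 (Rpe, Me1 and Idh1, all higher), against 17.8%, 8.71% with overexpression higher. Of all tested genes 48% were above 0 and 0.767% passed the adjusted p. The 3 genes in which overexpression lay above all 7 other libraries were the same, a pattern shown by 3.54% of tested genes, while 3.38% lay below all 7.

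The sponge against the scramble asked what a sponge for the microRNA changes, and the 8 genes showed no difference that could be told from the spread. Of the 8, 5 were above 0, against 49.3% of tested genes, with a median log2 fold change of 0.02 and values between −0.04 and 0.08. The groups overlapped in all 8, whereas they did not overlap in 15.2% of tested genes, 6.9% with the sponge higher. No gene passed the adjusted p of edgeR (0% of tested genes), DESeq2 called 1, 2.33% had an unadjusted p under 0.05, and none of the 8 genes did. The widest 95% interval was that of Taldo1, 0.881-fold to 1.24-fold. Between the controls, the mutated hairpin over the scramble, the log2 fold changes lay between −0.04 and 0.15, with Pgd at the upper end. There 5 of 8 were above 0, against 50.5% of tested genes. Groups did not overlap in 3 of 8, 2 of them higher, against 48.4% and 24.1% of tested genes. None of the 8 had an unadjusted p under 0.05, against 6.47%, and 0.0254% of tested genes passed the adjusted p. For the difference between the vector effects, 6 of 8 values were above 0, against 50.1% of tested genes, and 1 of 8, Rpe, had an unadjusted p under 0.05, against 8.06%. There edgeR's adjusted p was passed by no gene (0%), and DESeq2 called 48.

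**Figure D4:**
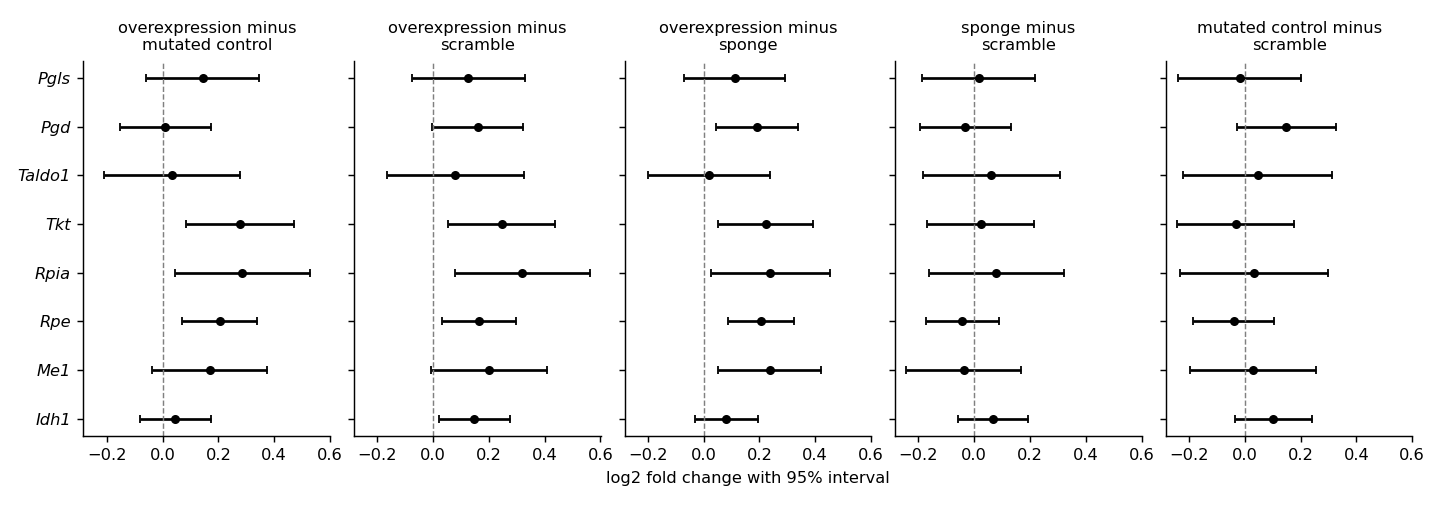
Log2 fold changes of the 8 genes with approximate 95% intervals in 5 comparisons, from 1 edgeR fit of 10 libraries. All 8 genes lie above 0 in the 3 comparisons of overexpression, and the unadjusted intervals of Tkt, Rpia and Rpe exclude 0 in each. Intervals also exclude 0 for Idh1 over the scramble and for Pgd and Me1 over the sponge. None of the 8 passed the adjusted p, and all intervals of sponge minus scramble include 0.

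The libraries that stood apart bear on these values. Overexpression replicate 1 was the highest library for 6 of 8 genes, and sponge replicate 2 the lowest for 6. In 4 genes (Pgls, Taldo1, Tkt and Rpia) both overexpression replicate 1 and sponge replicate 3 were among the 3 highest libraries. With both left out, a choice made after seeing the data, Tkt and Rpe passed over the mutated control, with log2 fold changes of 0.24 and 0.21 (edgeR adjusted p = 0.0271 and 0.0468), and 4.83% of tested genes were called. Over the sponge, Tkt, Rpe, Pgd and Rpia then passed with 0.26, 0.23, 0.22 and 0.29 (edgeR adjusted p = 0.0123, 0.0232, 0.0178 and 0.0301), where 10% of tested genes were called. Over the scramble 0 of 8 passed, against 2.4% of tested genes. Leaving out only sponge replicate 3, Tkt, Pgd and Rpia passed over the sponge, with log2 fold changes of 0.30, 0.26 and 0.35 (edgeR adjusted p = 0.0366, 0.0438 and 0.0446) and 5.88% of tested genes called. Members over the mutated control and over the scramble did not pass in that fit, where 1.6% and 0.235% of tested genes did. Calls also differed by tool and filter. DESeq2 called Rpe over the sponge (adjusted p = 0.0282), with 4.17% of genes. Without a filter on low counts edgeR called Tkt over the mutated control (adjusted p = 0.00922), with 4.67% of genes, and over the sponge (adjusted p = 0.0389), with 3.88%. It then also called Tkt and Rpia over the scramble (adjusted p = 0.0467 and 0.0463), with 2.51% of genes. Calls thus differed with the libraries that entered. Over the sponge, leaving out 1 library at a time gave Tkt log2 fold changes from 0.16 (without sponge replicate 2) to 0.30 (without sponge replicate 3), and gave Rpe 0.17 to 0.23. The part of the length trend in these values was not tested.

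**Figure D5:**
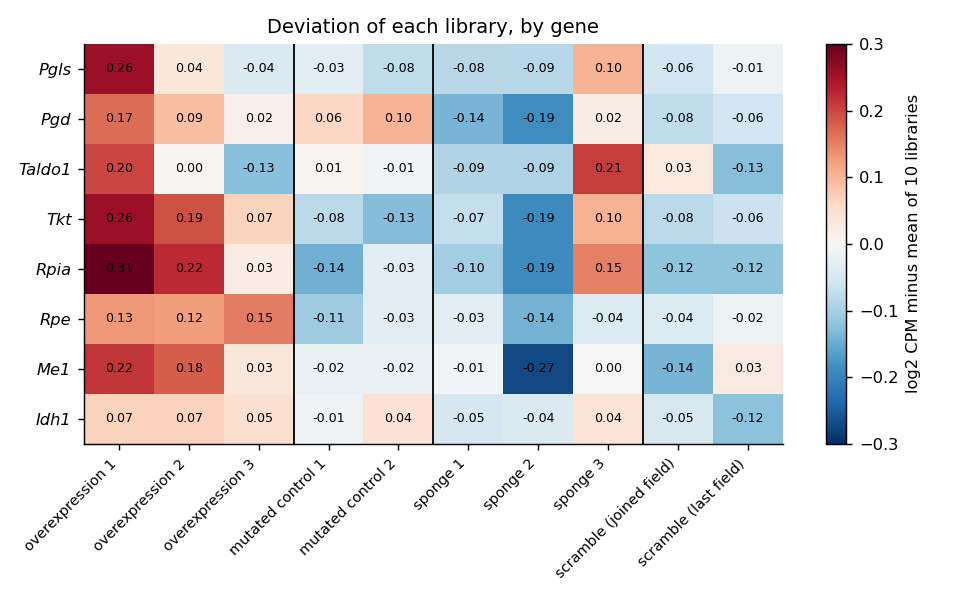
Log2 CPM minus the mean of the 10 libraries, for the 8 genes (rows) in each library (columns, grouped by vector). Overexpression replicate 1 is high in most rows (0.31 for Rpia), sponge replicate 2 is low (−0.27 for Me1), and Rpe is high in all 3 overexpression libraries (0.12 to 0.15).

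Over the 10 libraries Tkt and Rpia had the highest Pearson r of log2 CPM, 0.954, followed by 0.863 for Tkt and Me1. The median over all pairs was 0.69, and the lowest value was 0.14, for Taldo1 and Rpe. These are descriptions over libraries that share vectors and the length trend. By the same measure, among 10303 genes averaging 2 or more on the log2 CPM scale, the genes most like Tkt were Pkm (0.991), Tmem97 (0.990) and Acsl5 (0.989). Those most like Rpia were G3bp1 (0.987), Cfl1 (0.987) and Pfn1 (0.985), and those most like Rpe were Slc39a6 (0.968), AI506816 (0.960) and Pid1 (0.954). Pkm, the glycolytic pyruvate kinase, averaged 1640.3 ± 128 CPM with overexpression (SD, n = 3) and 1322 ± 0.37 CPM in the mutated control (SD, n = 2). With the sponge Pkm averaged 1368 ± 192 CPM (SD, n = 3), and sponge replicate 3, at 1573 CPM, lay inside the overexpression range. Slc39a6, a zinc transporter, averaged 104 ± 1.6 CPM with overexpression (SD, n = 3) and 91.3 ± 2.55 CPM in the mutated control (SD, n = 2). With the sponge Slc39a6 averaged 90.6 ± 3.34 CPM (SD, n = 3). These genes were picked for likeness to members over the same libraries, so their group means are not a separate result.

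Genes around the pathway were read from 7 lists, chosen with earlier results of these data known. Of 11 tested genes for other NADPH-producing enzymes 0 passed in either direction over the mutated control, with a median log2 fold change of 0.02. Nadk2, the mitochondrial NAD kinase that makes NADP, was the exception over the sponge. It had 29.1, 30.2 and 32.8 CPM with overexpression, against 41.1, 39.1 and 37.1 CPM with the sponge (log2 fold change −0.35, SE 0.06, edgeR adjusted p = 0.0372). In that comparison 0.285% of tested genes fell and 0.482% rose. Of 12 tested genes of ribose and sugar phosphate metabolism 0 passed, with a median of 0.11 over the mutated control. Dera, deoxyribose-phosphate aldolase, had 0.28 (SE 0.10, edgeR adjusted p = 0.182), and Ppat, which starts purine synthesis from ribose, 0.17 (SE 0.06, edgeR adjusted p = 0.181).

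The consumers of NADPH were described in the same way. All 7 subunits and partners of the phagocyte oxidase were tested and 0 passed in any of the 6 contrasts. Cybb, its catalytic subunit, averaged 989 ± 114 CPM with overexpression (SD, n = 3) and 1065 ± 56.8 CPM in the mutated control (SD, n = 2). It averaged 1158 ± 98.6 CPM with the sponge (SD, n = 3) and 1206 ± 12.2 CPM with the scramble (SD, n = 2). The log2 fold change of overexpression was −0.29 over the scramble (SE 0.10, edgeR adjusted p = 0.283) and −0.23 over the sponge (SE 0.09, edgeR adjusted p = 0.22). Of 21 reductases and other users of NADPH 0 passed over the mutated control, and 1 rose over the sponge, Hmox1, haem oxygenase 1. Hmox1 had 795, 817 and 786 CPM with overexpression, against 533, 514 and 603 CPM with the sponge (log2 fold change 0.54, SE 0.08, edgeR adjusted p = 0.0185). The mutated control had 726 and 857 CPM, on either side of the overexpression values (log2 fold change 0.01, SE 0.09, edgeR adjusted p = 0.937).

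Lipid synthesis uses NADPH, and glycolysis shares intermediates with the pathway. In fatty acid and sterol synthesis 14 of 16 tested genes were above 0 over the mutated control, against 48.8% of all tested genes. Overexpression over the scramble and over the sponge each had 15 of the 16 above 0, with medians of 0.44 and 0.40, against 47.7% and 48%. Unadjusted edgeR p under 0.05 was reached by 12 (mutated control), 14 (scramble) and 12 (sponge), against 18.2%, 13.4% and 17.7%. These 3 comparisons share the overexpression libraries. For sponge over scramble 12 of the 16 were above 0, with a median of 0.07, against 49.3%. For mutated control over scramble 13 were, with a median of 0.07, against 50.5%. Over the mutated control the median of the 16 was 0.41, and 1 rose, Dhcr7, the last enzyme of cholesterol synthesis. Dhcr7 had 75.9, 81.4 and 66.3 CPM with overexpression, against 45.3 and 46.1 CPM in mutated control libraries. Its log2 fold change was 0.71 (SE 0.13, edgeR adjusted p = 0.0489), where 0.247% of tested genes rose and 0.292% fell. Dhcr7 had 64.8, 52.4 and 74.5 CPM with the sponge and 53.5 and 60.2 CPM with the scramble. The mutated control was thus the lowest group, and sponge replicate 3 lay inside the overexpression range. Overexpression stood at 0.39 over the scramble (SE 0.13, edgeR adjusted p = 0.28) and at 0.23 over the sponge (SE 0.12, edgeR adjusted p = 0.346). In glycolysis 14 of 17 were above 0 over the mutated control, with a median of 0.22, and 0 passed. Overexpression had 15 of 17 above 0 over the scramble and 14 over the sponge, with medians of 0.29 and 0.23, and 0 passed. For sponge over scramble 13 of 17 were above 0 and for mutated control over scramble 11, with medians of 0.05 and 0.03. Ldha, lactate dehydrogenase A, had 0.35 over the mutated control (SE 0.11, edgeR adjusted p = 0.147). Of 13 transcription regulators 0 passed over the mutated control. Over the sponge 2 rose, Maff, a small MAF partner of NRF2 (0.67, SE 0.12, edgeR adjusted p = 0.0415), and Myc (0.82, SE 0.16, edgeR adjusted p = 0.0493). In that comparison 0.482% of tested genes rose. Over the mutated control Maff had 0.44 (SE 0.14, edgeR adjusted p = 0.158). Myc had 0.39 there (SE 0.18, edgeR adjusted p = 0.286). The mutated control over the scramble stood at 0.14 for Maff and 0.35 for Myc (edgeR adjusted p = 0.948 and 0.856). For sponge over scramble 0 genes of the 7 lists passed.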

How the data were processed

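The deposited file is a table of gene counts (whole numbers of read pairs, not normalized). featureCounts 2.0.1 was run by the authors on GENCODE vM30, grouping by gene name and ignoring strand, per the file headers. Reads of overlapping or antisense genes therefore cannot be separated. FastQC 0.11.6, Trimmomatic and STAR 2.7.6a are named in the submitters' processing notes, as is GRCm38. The annotation vM30 is of a later build, whose coordinates the table carries, and RefSeq sequences are given in GRCm38.p6.

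Lines have 15 fields under 16 names: 1 field runs the count of sponge replicate 3 and that of a scramble library together. Each joined field was split at the most likely point under a negative binomial (dispersion 0.1, expectation from the 8 intact libraries) and kept if at least 100 times likelier than the next. This left out 51 genes and no member. The scramble library recovered in this way is given before the other, and which replicate each is remains uncertain. Titles gave the groups and say biological replicates, not how cultures were kept apart, so the p-values describe spread among these libraries, which may be technical.

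All 10 libraries entered 1 edgeR 4.0.16 quasi-likelihood fit (R 4.3.3, TMM, filterByExpr, 6 residual degrees of freedom), with Benjamini-Hochberg adjustment over 15767 genes and a threshold of 0.05. CPM uses TMM factors, and TPM was computed from counts and exonic length. In bulk RNA, fewer cells of a type and less RNA per cell cannot be told apart. The fit was also run on simulated counts, drawn independently for each library. These held no length trend shared between libraries, so that run does not test this feature of the data. Alternatives were DESeq2 1.42.0, limma-voom (limma 3.58.1), other scalings and filters, a stricter split, replicate blocks and left-out libraries.

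The 9 members and the lists were chosen with earlier results of these data known. Of the 9, 1 is not reported here. Other genes were named if called in any contrast, otherwise the 2 per list with the smallest p over the mutated control. Likeness was taken for the 3 members with the smallest p among the 4 groups.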

Additional observations from a re-analysis of the deposited data

How the results depend on the processing

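Of 472 values of the 8 genes under other settings, without those leaving out 1 library, 447 kept direction and side of the threshold, 11 passed it and 14, all uncalled, turned sign. With all 10 libraries edgeR called 85 genes (overexpression over mutated control), 0 (sponge over scramble), 4 (mutated control over scramble), 7 (overexpression over scramble), 121 (overexpression over sponge) and 0 (difference of effects). In that order DESeq2 called 500, 1, 90, 234, 658 and 48, with 1 member over the sponge. No filter gave 1390, 24, 149, 747, 1155 and 331, with 1 member over the mutated control, 2 over the scramble and 1 over the sponge. Without overexpression 1 and sponge 3 (added later) the counts were 756, 0, 271, 376, 1572 and 271, with 2 members over the mutated control and 4 over the sponge. Upper quartile factors gave 2 and the stricter split 5 for the difference. Fits of only the groups compared called 34 (overexpression over mutated control), 574 (controls) and 15 (overexpression over sponge). Without both joined libraries (added later) 1 (controls), 3 (overexpression over scramble) and 221 (overexpression over sponge) were called. The causes were not tested.

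Replicate numbers did not pair the libraries: same-numbered libraries had correlations of −0.414 to 0.068 by title and −0.414 to 0.083 by description. Overexpression and sponge libraries carry the same number in both, and the lowest value is theirs. With a replicate block, 0 genes were called over the mutated control and 3 (title numbers) or 4 (description numbers) over the sponge, against 23 and 40 without block and scramble. The block turned Pgd over the mutated control to −0.003.

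Without the joined libraries signs turned for Pgls (−0.0716), Tkt (−0.0684) and Rpia (−0.0266) in sponge over scramble, Me1 between controls (−0.0509) and Taldo1 in the difference (0.01). Without overexpression 1 and sponge 3 they turned for Pgd (−0.0242) and Taldo1 (−0.054) over the mutated control, Pgls (−0.049), Taldo1 (−0.0433), Tkt (−0.0581) and Rpia (−0.0252) in sponge over scramble, Taldo1 over the scramble (−0.0082) and Idh1 in the difference (0.0074).

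Leaving out 1 library at a time, genes called ranged from 0 to 279 (overexpression over mutated control), 0 to 0 (sponge over scramble), 0 to 36 (controls), 1 to 37 (overexpression over scramble), 13 to 925 (overexpression over sponge) and 0 to 7 (difference). Members called ranged from 0 to 3 over the sponge and were 0 elsewhere. Signs then turned over the mutated control for Pgd (−0.0284 to 0.058) and Taldo1 (−0.0586 to 0.1176). In sponge over scramble they turned for Pgls (−0.0497 to 0.0513), Pgd (−0.0959 to 0.0104), Taldo1 (−0.0451 to 0.142), Tkt (−0.0593 to 0.09), Rpia (−0.0261 to 0.1503) and Me1 (−0.1158 to 0.0514). Between controls they turned for Pgls (−0.0407 to 0.0029), Taldo1 (−0.0312 to 0.1255), Rpia (−0.0273 to 0.0876) and Me1 (−0.0491 to 0.1178). Over the scramble they turned for Taldo1 (−0.0124 to 0.1614), and over the sponge for Taldo1 (−0.0738 to 0.1249). In the difference they turned for Pgd (−0.0005 to 0.106), Taldo1 (−0.1199 to 0.0787) and Idh1 (−0.0579 to 0.0159). Single genes other than the 8 were not followed under other settings. Counting alone gave a member's value in a library an error of at most 4.0%.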
